A study of Mus musculus with 2 samples.

Results

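The genes described here are 3 galectins (Lgals1, Lgals3 and Lgals9) and 7 annexins (Anxa1 to Anxa7) of GL261 cells, a mouse glioma line. They were taken by gene symbol, and they make up 10 of the 32285 genes whose unique molecular identifiers (UMIs) were counted. GL261 is an established line of C57BL/6 origin that the labels call Astrocytoma. Both cultures were kept in DMEM with 10% serum and antibiotics, in which adherent cells grew attached. Neurosphere cells, which grow as floating aggregates, had Epidermal and Fibroblast Growth Factor, at 20 ng/mL each, and B-27 (diluted 1:50) added to this medium and were collected on day 12. Per the labels both cultures were treated with trypsin, while the paper's methods name it for adherent cells only, and the neurospheres alone were also broken up by pipetting. Both were frozen in medium with 10% DMSO and profiled by droplet-based single-cell RNA sequencing with the 10x Genomics 3’ kit, with 1 library for each culture. The 2 libraries therefore show no replicate error. The growth factors, the floating growth, the days in culture, the way of dissociation and the library cannot be told apart.

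Galectins are small lectins that bind galactose-containing glycans on proteins and lipids. They are made in the cytosol, leave the cell without a signal peptide, and cross-link receptors and matrix outside it. In gliomas they are known for roles in migration and in restraining T cells. Annexins are cytosolic proteins that bind acidic membrane lipids in the presence of calcium. They take part in vesicle traffic, membrane repair and the linking of membranes to actin, and several of them pair with small calcium-binding S100 proteins.

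After the mitochondrial and ribosomal genes and the shallow cells were removed, 5051 adherent and 4276 neurosphere cells remained. They held a median of 8260.0 and 13198.5 UMIs, and a median of 2.02% and 3.97% of the UMIs in each cell had been mitochondrial. Levels are given as CPM, the UMIs of a gene over all kept cells for every 1000000 UMIs of its culture. The exact 95% interval in square brackets covers counting error only. Because neurosphere cells were sequenced more deeply, shares of cells with a UMI are also given after each cell was thinned at random to 5000 UMIs, which left out 587 shallower adherent and 80 shallower neurosphere cells. Barcodes common to both libraries numbered 12. Of the astrocyte markers, Aqp4 had 0 UMIs in both cultures and Gfap had 30 adherent and 27 neurosphere UMIs, while S100b was at 161 and 255 CPM and Slc1a3 at 370.4 and 80.5 CPM. The summed astrocyte list (6 of 7 genes above 0 in each culture) stood at 556 adherent and 349 neurosphere CPM. Immune markers summed to 13.2 and 5.10 CPM, with 5 and 4 of 8 genes above 0, most of it from Cd68, and Tyrobp and C1qa had 0 UMIs. Endothelial markers summed to 1.34 and 3.23 CPM, with 2 of 4 genes above 0 and Cdh5 at 0. Fibroblast markers summed to 6.42 adherent and 565 neurosphere CPM, with 4 and 5 of 5 genes above 0, and 81.9% of neurosphere cells held at least 1 of their UMIs. Their part in the differences between cultures was not tested.

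Most of the galectins and annexins were lower in neurosphere cells than in adherent cells. Of the 10 genes, 9 had at least 50 UMIs over both libraries, the minimum for a ratio. Of these 9, 6 were lower in neurosphere cells by at least 2-fold, 3 lay within 2-fold, and 0 were higher by 2-fold. Over all 14654 genes with that many UMIs, 11.7% were lower and 21.7% were higher by at least 2-fold. The median log2 ratio of neurosphere over adherent CPM was -1.56 for the 9 genes and 0.32 for all genes, so that the typical gene was slightly higher in neurosphere cells. Together the 3 galectins held 722349 adherent UMIs (15605 CPM) and 207301 neurosphere UMIs (3192 CPM). The 7 annexins held 106876 UMIs (2309 CPM) and 59414 UMIs (915 CPM).

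**Figure D1:**
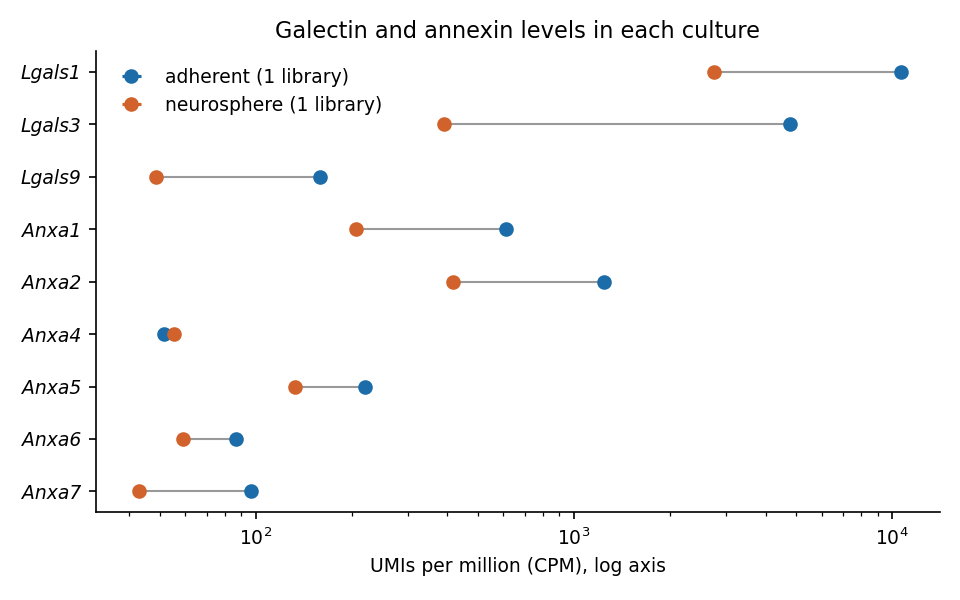
Level of each gene in the adherent (blue) and neurosphere (orange) library, in CPM on a log axis. The points are single libraries joined by a line, the counting intervals are narrower than most points, and Anxa3 (15 adherent and 0 neurosphere UMIs) is not drawn. The line is longest for Lgals3 and the points nearly meet for Anxa4.

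Lgals1 encodes galectin-1, which works as a dimer of a single lectin domain. It lies at chr15:78926725-78930465 on the plus strand (GRCm38), with 5 merged exons. Lgals1 had 493598 UMIs in adherent cells, or 10663 CPM [10633, 10693]. In neurosphere cells it had 178741 UMIs, or 2752 CPM [2739, 2765]. The log2 ratio was -1.95 [-1.96, -1.95], which is -2.28 relative to the median of all genes. Lgals1 was nevertheless detected nearly everywhere. All but 2 of the 5051 adherent cells and all but 134 of the 4276 neurosphere cells held a UMI. The difference lay in the amount in each cell. At 5000 UMIs per cell, the median adherent cell held 50 UMIs of Lgals1 and the 10th and 90th percentiles were 31 and 77. The median neurosphere cell held 7, with percentiles of 1 and 29. Only 1.98% of thinned neurosphere cells reached the adherent median.

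Neurosphere cells were also less alike in Lgals1. The variance of the thinned UMIs was 6.62 times their mean in adherent cells and 13.8 times in neurosphere cells, where counting alone would give a value near 1. No thinned adherent cell lacked Lgals1, while 6.24% of thinned neurosphere cells did, against 0.000754% for a Poisson count of the same mean.

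Lgals3 encodes galectin-3, the chimeric galectin whose flexible tail lets it assemble into lattices on glycans. It lies at chr14:47367751-47386160 on the plus strand, with 8 merged exons. Adherent cells held 221374 UMIs of it, or 4782 CPM [4762, 4802], and neurosphere cells 25408, or 391 CPM [386, 396]. This was the lowest log2 ratio of the 9 genes, at -3.61 [-3.63, -3.59], a 12.2-fold lower level in neurosphere cells. Unlike Lgals1, it was undetected in many neurosphere cells. Before thinning 99.6% of adherent but 68.2% of neurosphere cells held a UMI, and after it 99.8% and 47.8%. The median thinned cell held 21 UMIs in the adherent culture, with percentiles of 8 and 46, and 0 in the neurosphere culture, with percentiles of 0 and 4. The 52.2% of thinned neurosphere cells without a UMI compare with 18.4% for a Poisson count of the same mean, so that the remaining UMIs were spread unevenly over the cells. Lgals3 was uneven in both cultures, with a variance of 9.83 times the mean in adherent and 9.46 times in neurosphere cells.

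Lgals9 encodes galectin-9, a galectin with paired lectin domains that is known as a ligand of the T-cell receptor TIM-3 and as an interferon-responsive gene. It lies at chr11:78962974-78984946 on the minus strand, with 11 merged exons. It had 7377 adherent UMIs, or 159 CPM [156, 163], and 3152 neurosphere UMIs, or 48.5 CPM [46.9, 50.3]. The log2 ratio was -1.72 [-1.78, -1.65]. UMIs were seen in 69.3% of the adherent cells and 41.7% of the neurosphere cells (52.6% and 20.0% when thinned). Lgals9 was close to a Poisson count in both cultures, with a variance of 1.10 and 1.24 times the mean.

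Because the genes that followed Lgals9 most closely from cell to cell were interferon-stimulated genes (described with the correlations), its promoter is printed here beside that of Isg15, the ubiquitin-like interferon-stimulated gene that led them in neurosphere cells. RefSeq gives promoters (GRCm38.p6, 250 bases before to 50 bases after a start) for 7 of the 10 genes, and Lgals1, Anxa3 and Anxa6 had no entry. The sequences run from 100 bases before to 30 bases after the start, and capitals mark an interferon-response core, GAAA and GAAA separated by 2 bases of any kind, on either strand. Lgals9 (chr11:78984895-78985024, minus strand) and Isg15 (chr4:156200789-156200918, minus strand) read as follows.
Lgals9: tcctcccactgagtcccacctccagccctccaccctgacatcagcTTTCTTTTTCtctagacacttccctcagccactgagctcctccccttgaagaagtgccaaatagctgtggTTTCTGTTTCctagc
Isg15: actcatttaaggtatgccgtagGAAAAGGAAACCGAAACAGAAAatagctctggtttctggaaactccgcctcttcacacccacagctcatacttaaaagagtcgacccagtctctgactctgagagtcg

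The 300-base promoter of Lgals9 held 2 cores, which began 55 bases before and 15 bases after the start. That of Isg15 held 3, which overlapped each other. Bst2, Ifit1 and Ifitm3, the other genes nearest to Lgals9, held 2 each. The core was found in 3.44% of all 32851 promoters, and in no other of the 7 genes with an entry. The motif search was chosen after these correlations were seen, and a match describes letters only.

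Among the annexins, Anxa1 and Anxa2 had nearly the same ratio. Anxa1 encodes annexin A1, a glucocorticoid-induced protein that restrains inflammation through formyl peptide receptors. It lies at chr19:20373428-20390944 on the minus strand, with 15 merged exons. It had 28383 adherent UMIs, or 613 CPM [606, 620.3], and 13462 neurosphere UMIs, or 207 CPM [204, 211], with a log2 ratio of -1.56 [-1.59, -1.53]. It was detected in 92.2% of the adherent cells and 69.8% of the neurosphere cells (86.4% and 48.5% when thinned). Its counts were spread more widely than a Poisson count in both cultures, with a variance of 3.29 times the mean in adherent and 3.69 times in neurosphere cells. Of thinned neurosphere cells, 25.5% reached the adherent median of 2 UMIs.

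Anxa2 encodes annexin A2, which joins S100a10 in a complex that binds plasma membrane, actin and plasminogen. It lies at chr9:69453620-69491795 on the plus strand, with 15 merged exons. It had 57438 adherent UMIs, or 1241 CPM [1231, 1251], and 27096 neurosphere UMIs, or 417 CPM [412, 422]. The log2 ratio of -1.57 [-1.59, -1.55] was nearly that of Anxa1. In contrast to Lgals3, Anxa2 remained detectable in most neurosphere cells, at 91.5% against 98.6% of adherent cells. After thinning these shares were 74.5% and 98.7%. The median thinned cell held 6 adherent UMIs, with percentiles of 2 and 11, and 2 neurosphere UMIs, with percentiles of 0 and 5. Only 8.96% of thinned neurosphere cells reached the adherent median.

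The promoters of Anxa1 and Anxa2 are shown because theirs alone among the 9 entries for the 7 genes held the letters TATAAA. Capitals mark TATAAA and, in Anxa2, an AP-1 site (TGACTCA or TGAGTCA), on either strand. Anxa1 (chr19:20390642-20390771, minus strand) and Anxa2 (chr9:69453583-69453712, plus strand) read as follows.
Anxa1: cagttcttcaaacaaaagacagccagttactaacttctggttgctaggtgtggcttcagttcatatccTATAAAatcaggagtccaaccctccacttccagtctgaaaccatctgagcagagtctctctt
Anxa2: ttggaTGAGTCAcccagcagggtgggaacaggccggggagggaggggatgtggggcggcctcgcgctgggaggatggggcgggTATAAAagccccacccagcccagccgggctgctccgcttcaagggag

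TATAAA began 32 bases before the start in Anxa1 and 17 bases before it in Anxa2, and the AP-1 letters of Anxa2 began 95 bases before the start. Over all promoters of the same length, 13.6% held TATAAA and 5.20% held the AP-1 letters. No AP-1 letters were found in the other entries. These motifs were also chosen after values were seen, a match describes letters only, and a link with the ratios was not tested.

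Anxa7 encodes synexin, an annexin that promotes membrane fusion and binds sorcin. It lies at chr14:20455260-20480133 on the minus strand, with 13 merged exons. It had 4461 adherent UMIs, or 96.4 CPM [93.6, 99.2], and 2789 neurosphere UMIs, or 42.9 CPM [41.4, 44.6]. Its log2 ratio of -1.17 [-1.23, -1.10] was the nearest to the 2-fold limit among the 6 genes past it. With the mitochondrial and ribosomal UMIs counted in the totals, the ratio was -0.95 and no longer past that limit. Detection was 51.1% in the adherent cells and 37.4% in the neurosphere cells (35.8% and 16.5% when thinned).

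Anxa5, Anxa6 and Anxa4 lay within 2-fold. Anxa5 encodes the annexin used to stain exposed phosphatidylserine, and it lies at chr3:36448923-36475894 on the minus strand. It had 10175 adherent UMIs, or 219.8 CPM [216, 224], and 8652 neurosphere UMIs, or 133 CPM [130.4, 136], with a log2 ratio of -0.72 [-0.76, -0.68]. Detection was 76.7% in the adherent cells and 65.4% in the neurosphere cells (62.9% and 38.2% when thinned). The cells of the cultures also differed in how evenly they held Anxa5. In adherent cells the variance of thinned Anxa5 UMIs was 1.30 times the mean. In neurosphere cells the variance was 3.35 times the mean, and 61.8% of thinned cells lacked it against 47.4% for a Poisson count.

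Anxa6, an annexin built of paired annexin cores, lies at chr11:54979108-55033445 on the minus strand, with 26 merged exons. It had 4024 adherent UMIs, or 86.9 CPM [84.3, 89.7], and 3824 neurosphere UMIs, or 58.9 CPM [57.0, 60.8], with a log2 ratio of -0.56 [-0.63, -0.50]. The share of cells with a UMI was 50.7% and 51.0% before thinning and 35.3% and 24.5% after it. The lower level in neurosphere cells was thus visible in the shares only at equal depth.

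Anxa4, known from secretory epithelia, lies at chr6:86736840-86793584 on the minus strand, with 15 merged exons. It was the exception to the direction of the others, with 2380 adherent UMIs, or 51.4 CPM [49.4, 53.5], and 3591 neurosphere UMIs, or 55.3 CPM [53.5, 57.1]. Its log2 ratio was 0.10 [0.03, 0.18], turned to -0.11 with TMM scaling, and was -0.22 relative to the median of all genes. Its detection was higher in neurosphere cells before thinning, at 47.3% against 35.2%, and nearly equal at the same depth, at 22.9% against 23.1%.

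Anxa3, an annexin known from neutrophils, lies at chr5:96793339-96845966 on the plus strand and was barely detected. It had 15 UMIs in 0.257% of adherent cells (0.324 CPM) and 0 UMIs in neurosphere cells, with an exact upper limit of 0.0568 CPM. The exact upper limit of its log2 ratio was -2.33. With 0 set to a limit of 3 counts, or 0.0462 CPM in that library, Anxa3 was 7.01-fold lower there, a value that depends on this setting. It did not reach the 50 UMIs needed to count among the 9 genes.

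**Figure D2:**
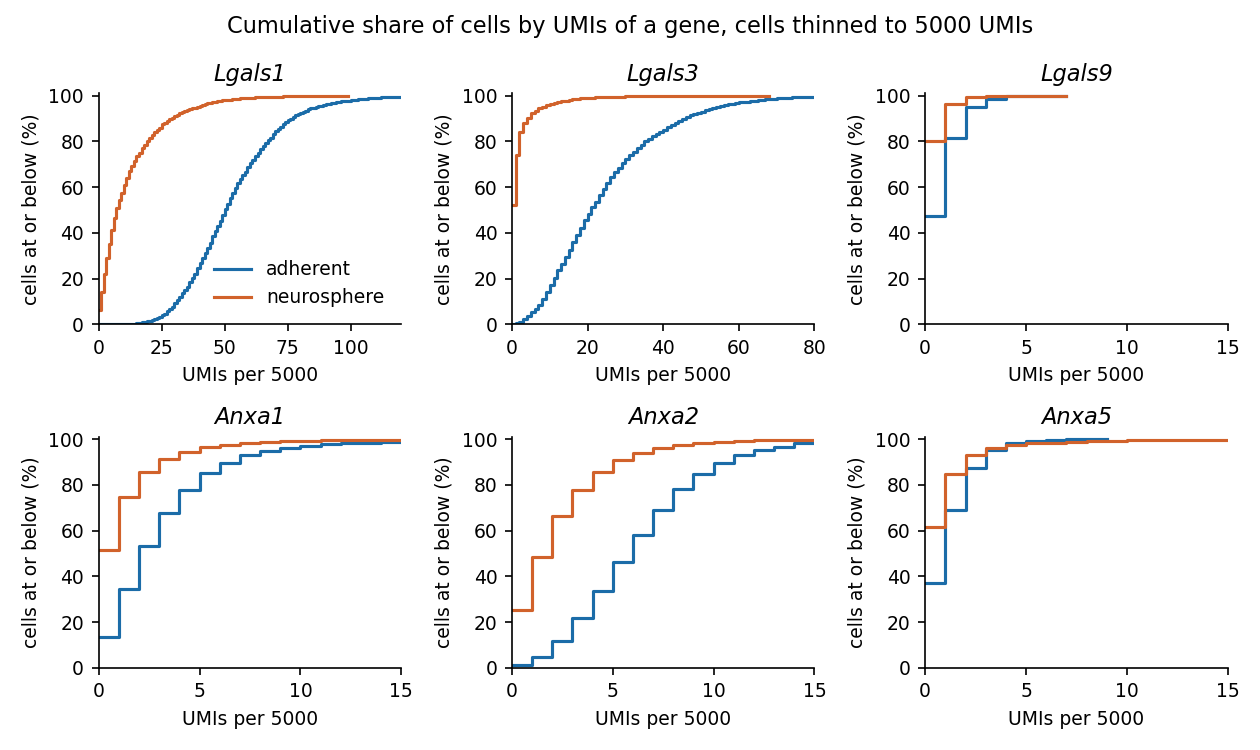
Cumulative share of cells (%, vertical) with at most the given number of UMIs of a gene (horizontal), after each cell was thinned to 5000 UMIs, for 4464 adherent (blue) and 4196 neurosphere (orange) cells of 1 library each. The neurosphere curves of Lgals1 and Lgals3 lie far to the left, with medians of 7 and 0 UMIs against 50 and 21, while the curves of Anxa5 cross at high counts.

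A neurosphere cell typically held fewer of these transcripts at equal depth. Of the 10 genes, a median of 6 (percentiles of 5 and 7) were detected in a thinned adherent cell and a median of 4 (percentiles of 2 and 6) in a thinned neurosphere cell. At least 6 were detected in 65.6% of adherent and 14.0% of neurosphere cells. None was detected in 0 adherent and 13 neurosphere cells. The summed galectin UMIs of a thinned cell had a median of 75 (46 to 113 between the percentiles) in adherent and 8 (2 to 33) in neurosphere cells. The summed annexin UMIs had a median of 11 (6 to 19) and 4 (1 to 10).

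Within each family the balance of UMIs shifted between the cultures. Lgals3 made up 30.6% [30.5, 30.8] of the UMIs of the 3 galectins in adherent cells and 12.3% [12.1, 12.4] in neurosphere cells, and Lgals1 made up 68.3% [68.2, 68.4] and 86.2% [86.1, 86.4]. Among the annexins, the share of Anxa2 was 53.7% in adherent and 45.6% in neurosphere cells, and that of Anxa1 was 26.6% and 22.7%. The shares of Anxa5 (9.52% and 14.6%), Anxa6 (3.77% and 6.44%) and Anxa4 (2.23% and 6.04%) were larger in neurosphere cells. Shares compare 1 gene between cultures and do not order the genes of a family, since UMIs were not corrected for properties of the transcripts.

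To see how the genes varied within a culture, the cells of each library were clustered with the galectins, the annexins and the listed partner genes left out of the clustering, which gave 11 clusters in each culture. Clusters are given by number and by their leading genes, and none was named as a cell type. The smallest adherent cluster, cluster 10 (Adgrb3, Neat1 and Slc35f1), had 58 cells with a median of 2732.5 UMIs and 10.5% mitochondrial UMIs, and it was the lowest adherent cluster for Lgals1, Lgals3, Anxa1, Anxa2, Anxa4 and Anxa5. Ranges are therefore also given without it, a choice made after the data were seen.

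Lgals1 varied little among adherent clusters, from 8857 to 13640.2 CPM without cluster 10 (3240.1 CPM in that cluster). The neurosphere clusters spanned a 9.24-fold range. The lowest was cluster 6, led by Dusp15, Enpp2 and the myelin gene Mbp, at 713 CPM, followed by cluster 0 (Aatk, Gm3550 and Chn2) at 994 CPM. The highest were cluster 8 (Chit1, Mt3 and Insc) at 6587 CPM and cluster 7 (Wnt7b, Btbd16 and Prss56) at 6207 CPM. Even these stood below every adherent cluster other than cluster 10.

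Lgals3 followed a similar order with a wider range. Adherent clusters ran from 2652 CPM without cluster 10 (1524 CPM in it) to 8025 CPM in cluster 2, which was led by Cd68, Mt3 and Gdnf. Neurosphere clusters ran 17.6-fold, from 94.3 CPM in cluster 0 to 998 CPM in cluster 7 and 1663 CPM in cluster 8. Mt3, a metallothionein, was among the leading genes of the cluster highest in Lgals3 in both cultures. Cluster 8 was also the highest neurosphere cluster for Lgals9, at 129 CPM [117, 142] against 29.7 CPM in cluster 3, and for Anxa7, at 109 CPM [97.9, 120.4]. The next for Anxa7 was cluster 7, at 85.9 CPM [79.7, 92.4]. The higher CPM of cluster 8 did not go with a larger share of thinned cells. Anxa7 was seen in 30.5% of thinned cells of cluster 8 and 33.3% of cluster 7, and Lgals3 in 79.8% and 83.8%. Anxa6 was at 95.4 CPM in cluster 8 and 89.7 CPM in cluster 5, within counting error of each other.

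Anxa1 and Anxa5 were highest in another neurosphere cluster. Cluster 5, led by the troponin genes Tnnt3 and Tnni2 and the natriuretic peptide gene Nppc, held 402 CPM [384, 421] of Anxa1 and 438 CPM [419, 458] of Anxa5. Anxa2 was at 658 CPM [634, 681] in cluster 5 but not apart from clusters 1, 8 and 10, at 650.4, 639.9 and 633 CPM, within counting error. Cluster 3, led by the S-phase genes Ccne2 and Rrm2 with Tcf19, was the lowest for Anxa1, Anxa2 and Anxa5, at 89.9, 250.5 and 57.4 CPM. Anxa4 was at 36.2 CPM in cluster 3 and 36.4 CPM in cluster 0, the same within counting error. The 438 CPM of Anxa5 in cluster 5 was above the highest adherent cluster, at 292 CPM, although Anxa5 was lower over all neurosphere cells. Anxa4 likewise reached 114 CPM in neurosphere cluster 1 (Comp, Ism1 and Aldh1l1) and 102 CPM in cluster 8, above the highest adherent cluster at 79.5 CPM. These excesses in CPM were not matched by the shares of thinned cells with a UMI. Anxa5 was seen in 66.9% of thinned cells of neurosphere cluster 5 and 72.4% of adherent cluster 0, its highest adherent cluster. Anxa4 was seen in 35.5% and 36.9% of neurosphere clusters 1 and 8 and in 35.7% of adherent cluster 2, its highest.

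Without adherent cluster 10, all 11 neurosphere clusters were below every adherent cluster in Lgals1, Lgals3 and Anxa2. This held for 10 of 11 clusters in Lgals9 and in Anxa1, 9 of 11 in Anxa6 and in Anxa7, 6 of 11 in Anxa5 and 2 of 11 in Anxa4. With cluster 10 included the counts were 9 for Lgals1, 10 for Lgals3, 7 for Anxa2, 10 for Lgals9 and for Anxa1, 9 for Anxa6 and for Anxa7, 1 for Anxa5 and 0 for Anxa4. Clusters of a library share its preparation and are not replicates.

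**Figure D3:**
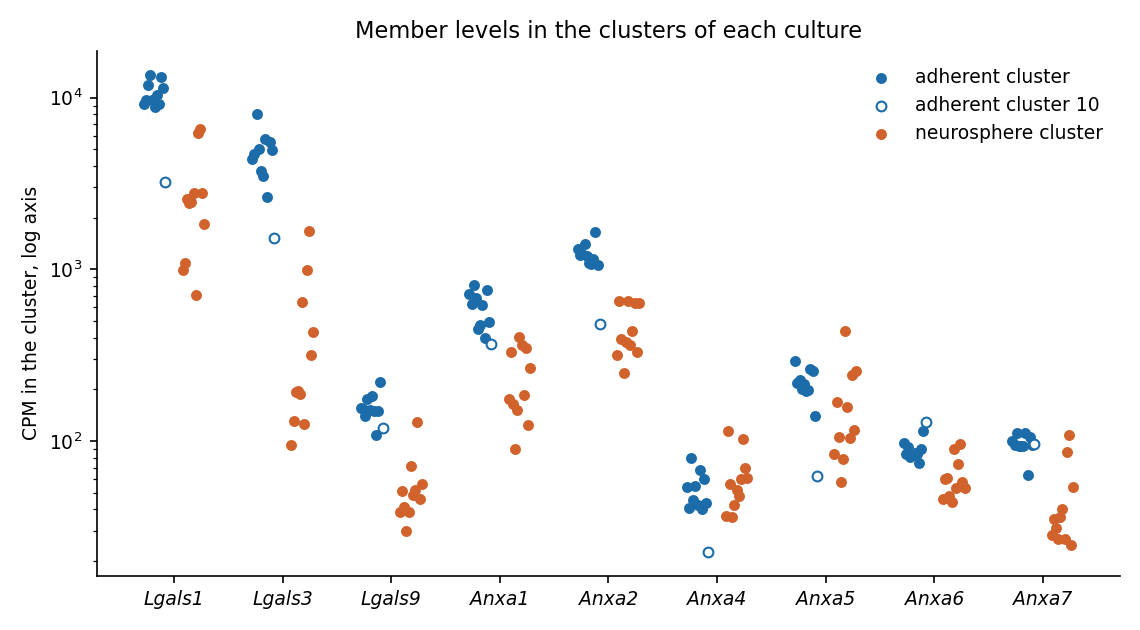
Level of each gene in each cluster, in CPM on a log axis, for the 11 adherent (blue) and 11 neurosphere (orange) clusters of 1 library each, with the shallow adherent cluster 10 drawn as an open circle. Orange points lie below all filled blue points for Lgals1, Lgals3 and Anxa2, and the topmost orange points of Anxa4 (114 CPM) and Anxa5 (438 CPM) lie above all blue ones.

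Across cells of a culture most pairs of genes had low correlations. Pearson correlations of log(1 + UMIs) over the thinned cells were taken for the 36 pairs of the 9 genes other than Anxa3, which had 0 UMIs in neurosphere cells. They had a median of 0.02 in adherent and 0.07 in neurosphere cells, and 2 and 4 pairs reached 0.2. The pairs share library and depth, and low correlations in sparse counts are not read as findings. The highest was Lgals1 with Lgals3, at 0.35 in adherent and 0.45 in neurosphere cells. The other pairs that reached 0.2 were Lgals3 with Anxa1 in adherent cells (0.22) and Lgals3 with Anxa7 (0.22), Anxa1 with Anxa2 (0.20) and Anxa1 with Anxa5 (0.20) in neurosphere cells. With another random draw of the thinning these 3 neurosphere pairs were at 0.19 each, and Lgals3 with Anxa2 was at 0.20 in place of 0.19, so that of the neurosphere pairs only Lgals1 with Lgals3 stood clearly above 0.2.

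**Figure D4:**
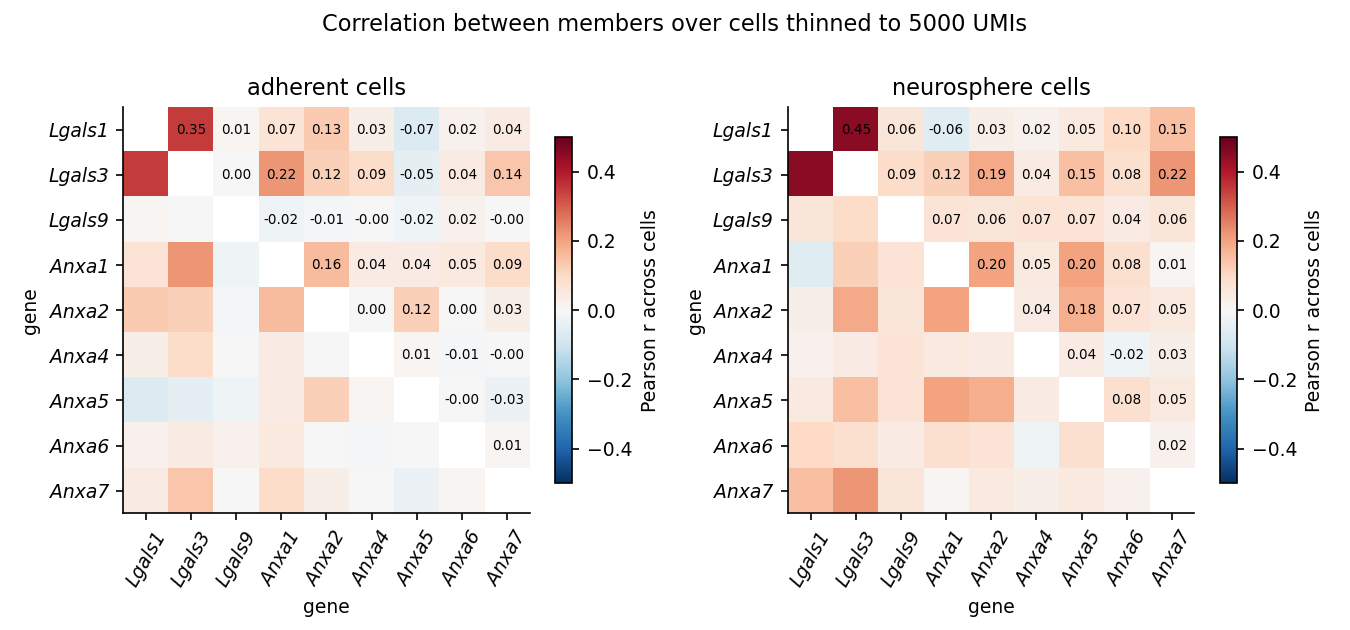
Pearson correlation between genes over 4464 adherent (left) and 4196 neurosphere (right) cells, each thinned to 5000 UMIs, with red for positive and blue for negative values. The darkest cell in both panels is Lgals1 with Lgals3, at 0.35 and 0.45.

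Among 5709 genes in adherent and 6657 genes in neurosphere cells with a UMI in at least 10% of thinned cells, the nearest neighbours of Lgals1 were Gapdh (0.37), Lgals3 (0.35) and Nme2 (0.33) in adherent cells. In neurosphere cells they were S100a10 (0.54), the partner of annexin A2, the cystatin gene Cst6 (0.52) and the membrane protein gene Emp3 (0.49). Lgals3 stood nearest to Tpt1, S100a6 and Lgals1 (0.35 each) in adherent cells and to S100a6 (0.56), Lgals1 (0.45) and S100a10 (0.43) in neurosphere cells. S100 genes thus recurred beside both galectins in neurosphere cells.

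Lgals9 had other neighbours, although at low values. They were Bst2 (0.12), Ifitm3 (0.11) and Isg15 (0.09) in adherent cells and Isg15 (0.23), Ifit1 (0.21) and Ifitm3 (0.21) in neurosphere cells. All of these are interferon-stimulated genes, and each had at least 2 interferon-response cores in its promoter, as Lgals9 did in the sequence printed above.

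The neighbours of the annexins reached at most 0.27. Anxa2 stood nearest to Vim, the intermediate filament gene, in both cultures, at 0.24 in adherent and 0.21 in neurosphere cells, with Ckb (0.22 and 0.20) in both and Tm4sf1 (0.22) or Anxa1 (0.20). Anxa5 stood nearest to Gpx4 (0.20), Lbh (0.19) and Mbp (0.18) in adherent cells and to Id3 (0.27), Sparc (0.26) and Tm4sf1 (0.25) in neurosphere cells. Anxa1 stood nearest to Lgals3 (0.22), S100a6 (0.22) and Sat1 (0.20) in adherent cells and to S100b (0.24), Bag1 (0.23) and Id3 (0.23) in neurosphere cells. Anxa7 stood nearest to Lgals3 in both, at 0.14 and 0.22, followed by Tpt1 (0.14) and Phlda2 (0.12) in adherent cells and by S100a6 (0.20) and S100a10 (0.19) in neurosphere cells. The values of Anxa4 and Anxa6 reached at most 0.15 and 0.11. Like those of Lgals9 in adherent cells, they are low and are not read as findings. For Anxa4 the nearest genes were Slc30a4 (0.10), Sat1 (0.09) and Blvrb (0.09) in adherent cells. In neurosphere cells they were Cstb (0.15), Krt8 (0.15) and Tmsb4x (0.14). For Anxa6 they were Tmsb4x (0.11), Tpt1 (0.07) and Cul4a (0.06) in adherent cells and Lgals1 (0.10), S100a10 (0.09) and Actg1 (0.09) in neurosphere cells.

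Of 6 other galectin genes counted, 3 had at least 50 UMIs, and all were lower in neurosphere cells but within 2-fold, with a median log2 ratio of -0.89. Lgalsl, which encodes a galectin-like protein, was at 45.1 adherent and 22.7 neurosphere CPM, with a UMI in 32.0% and 26.7% of the cells and a ratio of -0.99 [-1.09, -0.89], at the edge of 2-fold. Lgals8, which recognises damaged endosomes, was at 18.3 and 11.5 CPM, with a ratio of -0.67 [-0.81, -0.53]. Of 5 other annexin genes, 2 had enough UMIs and lay within 2-fold, with a median of -0.04. Anxa11, which binds Pdcd6, was at 3.09 and 2.77 CPM, with a ratio of -0.16 [-0.48, 0.17], whose interval includes 0.

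Among 9 annexin partners, 5 were lower in neurosphere cells by at least 2-fold, 0 were higher and 4 lay within 2-fold, with a median log2 ratio of -2.31. The low ones were the S100 genes of this list and the scaffold gene Ahnak. S100b, an S100 gene outside this list, was higher in neurosphere cells, at 161 adherent and 255 neurosphere CPM. S100a10, the partner of annexin A2, was at 1677 adherent and 337 neurosphere CPM, a ratio of -2.31 [-2.34, -2.29]. S100a11, a partner of annexin A1, was at 574 and 104 CPM, a ratio of -2.46 [-2.50, -2.42]. S100a6, the calcyclin gene, was at 7353 and 753 CPM, a ratio of -3.29 [-3.30, -3.27]. S100a4, linked to motility, was at 346 and 3.54 CPM, a ratio of -6.61 [-6.80, -6.42]. Ahnak, a large scaffold that binds the complex of annexin A2 and S100a10, was at 70.8 and 12.0 CPM, a ratio of -2.56 [-2.67, -2.45]. In contrast, Sri (sorcin, -0.03), Pdcd6 (0.19), Dysf (dysferlin, 0.20) and Plat (the plasminogen activator, 0.20) lay close to 0.

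The formyl peptide receptor genes Fpr1, Fpr2 and Fpr3, through which annexin A1 signals, had 8 adherent and 13 neurosphere UMIs in all, too few for a ratio. Of 8 ligands and receptors of galectins, 6 were measured, of which 1 was higher and 2 were lower by 2-fold, with a median of -0.46. Lgals3bp, a secreted glycoprotein that binds galectin-3, was at 104 and 41.9 CPM, a ratio of -1.31 [-1.37, -1.24]. Nrp1, a receptor bound by galectin-1, had a ratio of -1.14 [-1.41, -0.88], an interval that reaches the 2-fold limit. Lamp1, the lysosomal glycoprotein, was the one that was higher, at 227 and 665 CPM, a ratio of 1.55 [1.52, 1.58]. Havcr2, the gene of TIM-3, had 13 UMIs in each culture.

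Of 7 glycan enzymes, 1 was higher by 2-fold and 0 were lower, with a median of 0.26. The list was made for enzymes that branch glycans but also holds a galactosyltransferase and a sialyltransferase, so the median is not of branching alone. Mgat2, which adds the second branch, was at 18.3 and 65.7 CPM, a ratio of 1.85 [1.74, 1.95]. Of 7 genes of phosphatidylserine exposure, the lipid signal that annexin A5 binds, 1 was higher by 2-fold and 0 were lower, with a median of 0.53. Tmem30a, the subunit of the flippases that keep the lipid inside, was at 95.4 and 274 CPM, a ratio of 1.52 [1.48, 1.57]. Over all lists, 34 of the 45 genes counted were measured, and 7 were lower and 3 were higher by 2-fold, or 20.6% and 8.82%, against 11.7% and 21.7% of all genes. Of the 7 lower ones, 5 were annexin partners.

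**Figure D5:**
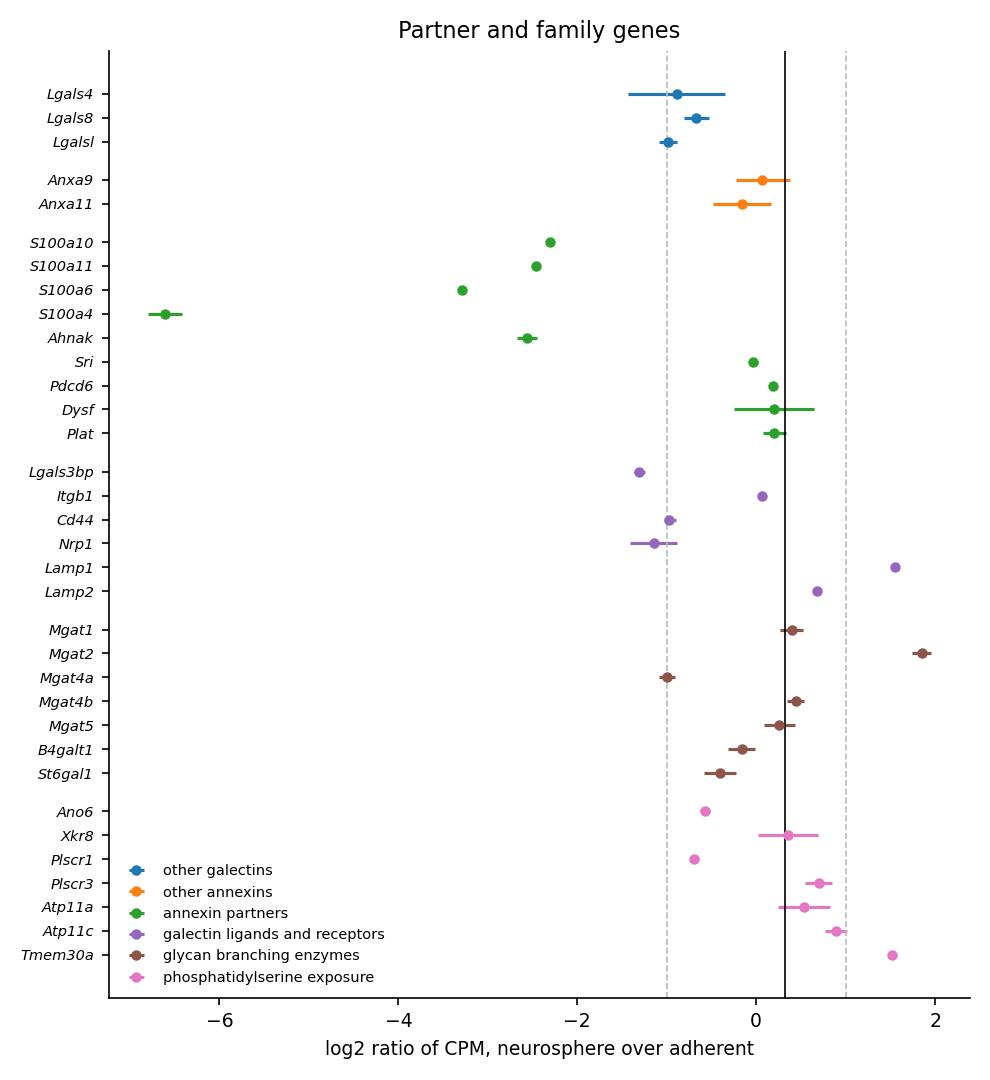
Log2 ratio of neurosphere over adherent CPM (horizontal) for the 34 measured family and partner genes, coloured by list, with exact 95% counting intervals as bars. The solid line is the median of all genes (0.32) and dashed lines mark 2-fold. S100a4 lies farthest left (-6.61) and Mgat2 farthest right (1.85).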

How the data were processed

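For each of the 2 libraries the authors deposited raw UMI counts per gene and called cell, made with Cell Ranger 7.0.1 on mm10 per the submitters' processing notes, without normalization. The setting for intronic reads is not given in the sources used here. The 13 mitochondrial and 101 ribosomal genes were removed, and cells with at least 1000 UMIs and at least 1250 (adherent) or 2250 (neurosphere) genes were kept, 5051 of 5764 and 4276 of 4951 called cells. Filtering cells before genes kept 5073 and 4300. Total depth was 68531063 adherent and 82832873 neurosphere UMIs, of which 46290996 and 64943938 were on the genes left in kept cells.

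With 1 library per culture no test was run, and exact 95% intervals (conditional for log2 ratios, binomial for shares and Poisson for CPM) hold counting error alone and treat no cell as a replicate. On simulated Poisson counts for neurosphere against adherent cells (32171 genes, 200 changed), the interval held 95.0% of the changed ratios. Because the interval assumes such counts, this checks the calculation only. It does not show how well the intervals hold for real counts, which varied more between cells. No doublet caller was run and no doublets were removed. Cells over the 95th percentile of UMIs were left out as an alternative. A share of cells in a type lacking a gene, which would show free RNA, cannot be had from a single cell line. Ratios were limited to genes with 50 or more UMIs in total.

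Clustering used Seurat 5.3.0 (R 4.3.3) with 2000 variable genes less 13 (adherent) or 17 (neurosphere) galectin, annexin and listed genes, 17 or 18 principal components and a resolution of 1.0. Positions came from the GENCODE annotation of GRCm38 and promoters from RefSeq (GRCm38.p6). Named are the 10 genes, listed genes past 2-fold with S100a10, S100a11, Lgals3bp, Lgals8 and Anxa11 in any case, the 3 nearest genes of each gene with a UMI in at least 25% of cells, and the 3 leading genes of each cluster described. Other genes (Lgalsl, Sri, Pdcd6, Dysf, Plat, Fpr1 to Fpr3, Havcr2) and the motifs were chosen after values were seen. The members and lists were chosen with earlier results of these data known. Alternatives covered the cells kept, the order of filters, TMM scaling (edgeR 4.0.16), the genes in the total, the mean of each cell's CPM, depth, the minimum of UMIs, the clustering and the correlation. Python 3.11.15, numpy 2.4.6, scipy 1.17.1, pandas 2.3.3 and matplotlib 3.10.9 were used.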

Additional observations from a re-analysis of the deposited data

How the results depend on the processing

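Under the 9 alternative settings of cells, scaling and depth, the galectins and Anxa1, Anxa2, Anxa5, Anxa6 and Anxa7 kept their direction. The log2 ratio ranged from -2.17 to -1.73 for Lgals1, from -3.85 to -3.39 for Lgals3, from -1.93 to -1.50 for Lgals9, from -1.78 to -1.35 for Anxa1 and from -1.38 to -0.95 for Anxa7. With TMM scaling, which put the median of all genes at 0.11 in place of 0.32, Anxa4 was at -0.11, and 11 listed family and partner genes in place of 7 were lower by at least 2-fold. With mitochondrial and ribosomal genes in the total the median was 0.54, and Anxa7, at -0.95, was no longer past 2-fold. With no minimum of UMIs, 12 listed genes counted as lower by 2-fold, but Lgals12 and Fpr1 among them had 0 adherent and 1 neurosphere UMI and counted only because 0 was set to the limit of 3 counts. Of 81 alternative ratios, 37 moved beyond their counting interval and 1 changed direction, and of 140 shares of cells 70 moved. The range over clusters depended on the shallow adherent cluster, the resolution and the variable genes. At a resolution of 0.5, Lgals3 spanned 9.44-fold in place of 17.6-fold and Anxa5 5.01-fold in place of 7.64-fold over neurosphere clusters, and Anxa4 2.05-fold in place of 3.52-fold over adherent ones. With the left-out genes allowed among the variable genes, Anxa5 spanned 7.91-fold in place of 4.71-fold over adherent clusters. The correlation of Lgals3 with Anxa7 in neurosphere cells was 0.15 by Spearman in place of 0.22. No paired analysis was possible because each culture has 1 library. Depth limited Anxa3, and the 15 adherent UMIs set its bound.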

Other observations

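The barcodes left out by the cell filter, 713 adherent and 675 neurosphere, had a median of 48.8% and 87.0% mitochondrial UMIs, and they entered only the alternative with all called cells. After the mitochondrial and ribosomal genes were removed they held 392008 adherent and 574706 neurosphere UMIs. In them Lgals1 was at 7099 and 2114 CPM and Lgals3 at 3260.1 and 386 CPM, log2 ratios of -1.75 and -3.08, so that both were lower there too. The ratios of Lgals9 (-0.87, from 45 and 36 UMIs), Anxa1 (-0.87) and Anxa2 (-0.36) were nearer to 0 than in the kept cells. That of Anxa6 (-0.94, from 42 and 32 UMIs) was farther from 0 than its -0.56 in the kept cells. Anxa5 was at 209 adherent and 235 neurosphere CPM, and Anxa4, with only 12 and 44 UMIs, was at 30.6 and 76.6 CPM.

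In neurosphere cells, and picked after the values were seen, the lowest correlations of Anxa1 were with Npm1 (-0.25), H2afz (-0.24) and Hmgb2 (-0.23), and those of Anxa5 were with Ptma (-0.31), Hmgb2 (-0.26) and Anp32b (-0.26). The lowest of Lgals1, of Lgals3 and of Anxa7 was with the collagen gene Col11a1, at -0.44, -0.31 and -0.13. Lgals9 had its lowest with Hmgb2 (-0.11) and Anxa6 with Cd81 (-0.09). Like that of Anxa7, these are close to 0 and are not read as findings. All of these correlations are over cells of a single library and are a description.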
